A study of Danio rerio with 6 samples.

Results

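Collecting ducts from unirradiated adult zebrafish were compared with whole kidney on 4 of the 6 arrays of the series. The arrays were taken by their titles, 2 for ducts and 2 for kidney, and all genes on the array were compared between them. The other 2 arrays held ducts from fish given 25 Gy of X-rays. They entered the model for its estimate of the spread between replicates, and their levels are printed for a few genes. All fish, kidney donors included, carried Tg(jam1a:EGFP), in which the promoter of a tight junction gene now named f11r.1 drives EGFP. Each array was hybridised with RNA pooled from 5 fish, and the 2 pools of a group were described as independent. Ducts were picked under a fluorescence microscope, and the whole kidney they were set against also holds ducts. The part of this picking in the differences below was not tested. Neither an age beyond adult nor a sex is given in the labels.

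The collecting duct is the last part of the renal tubule. It is a tight epithelium that adjusts the salt, acid, ammonia and water content of the urine before it leaves the kidney. In adult zebrafish the tubules lie inside the kidney marrow, the organ where blood cells are made, so a whole kidney sample holds proximal and distal tubule, blood-forming cells, vessels and stroma together. The proximal tubule takes back most filtered amino acids, sugars and phosphate, and secretes organic ions.

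Levels below are log2 RMA values, and a log2 difference is the duct mean minus the kidney mean with its moderated standard error (SE). The kind of array used gives a value for each probe set that depends on its probes, so levels are compared between samples and never between genes. An adjusted p under 0.05 counts as past the threshold, and only genes past it are called higher or lower. Of 8793 genes, 361 were higher in ducts (4.11%) and 292 lower (3.32%), 7.43% in all. Of these, 331 higher genes (3.76% of all) and 230 lower genes (2.62%) differed at least 2-fold. The duct and kidney arrays did not overlap for 57.5% of all genes, so a lack of overlap is common here. The median log2 difference over all genes was -0.04. At an unadjusted limma p under 0.05, 1029 of the 8793 genes were higher and 1428 lower. In 156 of the 361 higher genes the kidney mean, and in 74 of the 292 lower genes the duct mean, lay under the array medians of 5.82 to 5.88. Such levels are not shown to be above background, and the size of those differences is uncertain. Since these are bulk samples, fewer cells of a type and less RNA per cell cannot be told apart.

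The kidney replicates differed more than the duct replicates, the SD being 0.465 in kidney and 0.246 in ducts as a root mean square over probe sets. Of 15502 probe sets tested, 4.27% were higher in ducts and 2.99% lower, 7.26% in all. With all arrays in the fit, 4163 of them had an unadjusted limma p under 0.05. Leaving out either duct array left 0 probe sets past the threshold by limma, with 2777 and 2536 at an unadjusted p under 0.05. The lowest adjusted p over all probe sets was then 0.0665 without duct replicate 1 and 0.0563 without duct replicate 2. All 172 called genes named in the text kept their direction in each of these fits. This could not come out otherwise, since the duct and kidney arrays of these genes did not overlap. Directions are relative to the median transcript. The hybridisation controls, bacterial transcripts spiked into the labelled sample, had medians of 10.75 and 11.26 in ducts and 8.19 and 10.15 in kidneys. The kidney arrays thus lay far apart, and the irradiated ducts, at 9.30 and 9.42, lay between them. As a mean of these medians the ducts read 1.84 higher than the kidneys. Centring the arrays on the controls turns every rise smaller than that. The difference between 3' and 5' GAPDH control probe sets was 1.16 and 2.52 in the ducts and 0.55 and 0.91 in the kidneys. The part of RNA quality in the results was not tested.

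The ducts were set against marker genes first, in lists chosen with earlier results of these data known. They were picked by fluorescence in fish whose f11r.1 promoter drives EGFP, so f11r.1 is no independent check of their label. The gene behind the reporter, f11r.1, read 11.54 and 11.39 in the ducts and 10.36 and 10.20 in the kidneys. Both duct arrays lay above both kidney arrays, a lack of overlap found in 57.5% of all genes. The log2 difference of f11r.1 was 1.19 ± 0.16 (adjusted p = 0.0172). Among 20 measured markers of the collecting duct, 7 were higher, 0 were lower and 16 differences were positive, with a median of 0.82. The 7 were rhcgb and rhbg of ammonia transport, the transcription factor genes gata3 and gata2a, the carbonic anhydrase gene ca2 and the claudin genes cldnb and cldn3c. The other epithelial markers of the list stayed short of the threshold. The cadherin gene cdh1 had a log2 difference of 1.03 (adjusted p = 0.0859), and the adhesion gene epcam one of 0.76 (adjusted p = 0.0544). The keratin gene krt8 stood at 0.74 (adjusted p = 0.0588) and the chloride channel gene clcnk at 0.88 (adjusted p = 0.0879). The level of foxi1, which marks ionocytes, lay between 3.04 and 3.35 in these 4 arrays, far under the array medians. The homeobox gene emx1 read 10.67 and 9.65 in the ducts but 5.39 and 8.96 in the kidneys, and this gap between the kidney replicates left its log2 difference of 2.99 at an adjusted p of 0.155. The related gene emx2 went the other way, at 5.27 and 6.10 in ducts against 6.78 and 7.65 in kidneys. Its log2 difference of -1.53 (adjusted p = 0.0804) was the most negative of the list. A second probe set of emx2 was lower past the threshold. The water channel gene aqp3a read 5.86 and 4.68 in ducts and 5.48 and 6.81 in kidneys, and the groups overlapped. The 7 calls ended without duct replicate 1 or 2, with adjusted p of 0.0842 to 0.189 and 0.0673 to 0.185 over these genes, f11r.1 and the 3 called proximal markers.

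Markers of other cells differed as well, and their counts stand beside 4.11% higher and 3.32% lower of all genes. All 11 measured proximal tubule markers had negative differences, 3 of them past the threshold, with a median log2 difference of -1.60. Some stayed high in the ducts, where the organic cation transporter gene slc22a2 read 10.14 and 10.15 against 11.28 and 12.22 in the kidneys. Their summed level on the log2 scale was 11.8 and 12.8 in the ducts and 13.4 and 14.3 in the kidneys. Smooth muscle and stromal markers went the other way, with 7 of 10 higher, a median of 2.98 and log2 summed levels of 14.3 and 14.1 against 12.1 and 10.8. Skeletal muscle markers were higher for 7 of 17, with log2 sums of 11.7 and 12.8 against 9.86 and 10.01. An actin gene among the 7 had 4 probe sets that disagreed, with calls of higher, lower and none among them. For erythroid markers 7 of 15 were lower, with log2 sums of 13.7 and 14.3 against 15.4 and 15.1. The myeloid list had 4 of 14 lower, with 13.4 in both duct arrays and 14.5 in both kidney arrays. In limma 0 of 4 podocyte, 6 lymphoid, 6 interrenal and 15 liver, pancreas and gonad markers passed, with 0, 1, 0 and 2 at an unadjusted p under 0.05, all lower in ducts. What part these other cells have in the gene groups below was not tested.

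**Figure D1:**
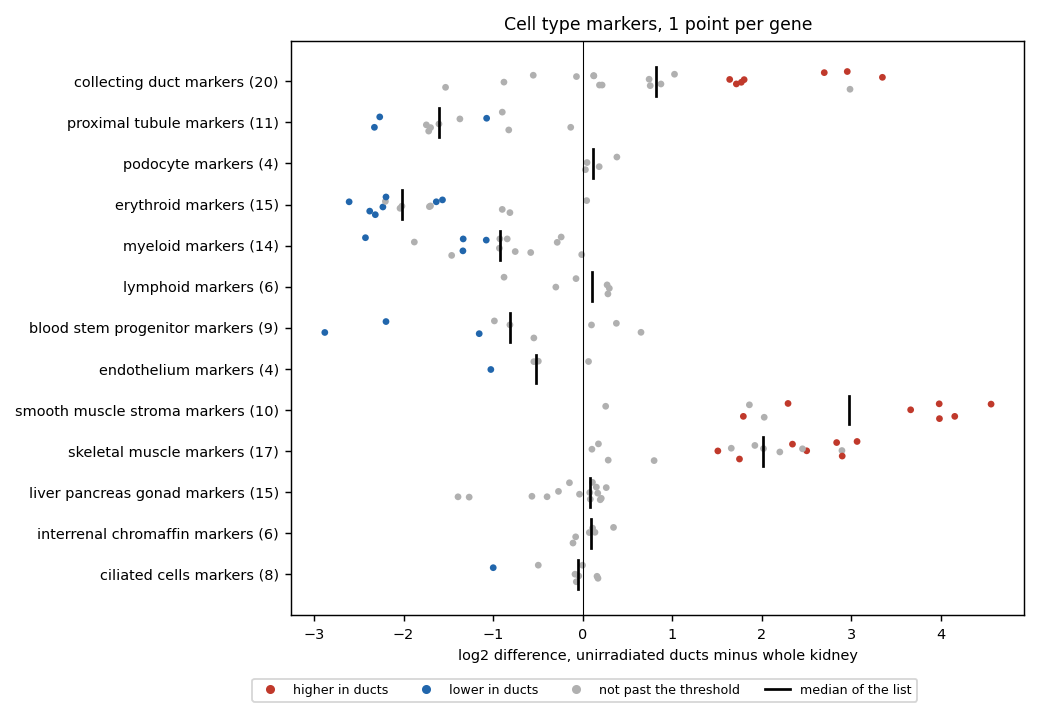
Log2 difference between unirradiated ducts and whole kidney (x axis, log2 scale) for the measured markers of 13 cell types (y axis, number of genes in brackets), with 1 point per gene, colour for the call and a black bar for the list's median. Collecting duct, smooth muscle and skeletal muscle markers lie to the right, with medians of 0.82, 2.98 and 2.02, while proximal tubule and erythroid markers lie to the left, with medians of -1.60 and -2.02.

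Transport genes were called in both directions. Of 238 measured genes of 17 transport lists, 23 were higher in ducts (9.66%) and 12 lower (5.04%), against 4.11% and 3.32% of all genes, and their median log2 difference was -0.03. Carriers of ammonia, bicarbonate, sodium and chloride were among the higher ones, and a metal carrier was among the lower ones. Other carriers went both ways. Amino acid carriers had 2 of 25 higher and 2 lower, and mitochondrial carriers 3 of 25 higher and 1 lower. Carriers of organic ions, monocarboxylates and nucleosides had 2 of 20 higher and 3 lower. The rhcgb gene, whose product moves ammonia across the apical membrane in mammals, read 10.99 and 10.81 in the ducts and 7.07 and 8.03 in the kidneys. Both ducts lay well above both kidneys, a 10.2-fold difference (log2 difference 3.35 ± 0.35, adjusted p = 0.00992). Its basolateral relative rhbg read 9.43 and 8.92 against 6.86 and 6.10 (2.70 ± 0.30 as a log2 difference, adjusted p = 0.0119). The cytosolic carbonic anhydrase gene ca2, which makes bicarbonate and protons from carbon dioxide, read 12.26 and 12.15 against 10.67 and 10.45, a 3.13-fold difference. These 3 were the higher members of a list of 10 carbonic anhydrase and Rh genes, and the blood cell carbonic anhydrase gene cahz was its single lower member.

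Among 16 subunit genes of the sodium and related potassium pumps, 2 were higher and 0 lower. The catalytic subunit gene atp1a1a.3 read 13.07 and 12.86 in the ducts and 9.56 and 10.36 in the kidneys, 8.04-fold higher in ducts (log2 difference 3.01 ± 0.29, adjusted p = 0.008). The pump regulator gene fxyd3 read 9.54 and 9.18 against 7.19 and 7.72. In both genes every duct array was above every kidney array, a lack of overlap found in 57.5% of all genes. Anion exchange and chloride cotransport had 4 of 17 genes higher and 0 lower. Among them were slc4a2a, a chloride and bicarbonate exchanger gene (12.23 and 12.32 against 10.85 and 11.13), and slc26a5, of a family of anion exchangers (8.84 and 9.13 against 7.22 and 7.53). The gene slc12a8, of the cation and chloride cotransporter family, read 7.46 and 7.47 in ducts and 5.79 and 5.82 in kidneys, with replicates closer than 0.05 apart on the log2 scale in each group. A second probe set of slc4a2a had a similar log2 difference of 1.37 (adjusted p = 0.0541) and another one of 0.38. The water channel gene aqp8a.1 was higher too, with 7.33 and 7.14 in ducts and 6.39 and 6.23 in kidneys (log2 difference 0.93 ± 0.17, adjusted p = 0.0354). It was 1 of 5 water channel genes on the array, and the other 4 did not pass.

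The vacuolar proton pump, which acidifies organelles and, in some duct cells, the urine, had 12 of 15 differences below 0 and a median of -0.50. Only atp6v1e1b (9.43 and 9.11 in ducts against 10.42 and 10.53 in kidneys) and atp6v1h (8.26 and 8.53 against 9.31 and 9.22) were lower past the threshold. Amino acid carriers were split, with 2 of 25 higher and 2 lower. The sodium-coupled carrier gene slc38a4 read 7.83 and 7.51 in ducts and 4.41 and 4.67 in kidneys, an 8.77-fold difference over kidney levels under the array medians. The leucine carrier gene slc43a1a was 2.68-fold higher. In the other direction, slc7a7, which exports cationic amino acids to the blood in mammalian proximal tubule, read 5.27 and 6.06 against 8.28 and 8.68 (log2 difference -2.82 ± 0.39, adjusted p = 0.019). The apical neutral amino acid carrier gene slc6a19a.1 read 5.53 and 6.47 against 7.89 and 8.37. The organic anion carrier gene slc22a7b.1 read 7.94 and 9.05 in ducts and 11.07 and 10.83 in kidneys, a 5.48-fold difference, and the bile acid carrier gene slc10a2 was 3.54-fold lower in ducts. In all 4 of these genes duct replicate 2 lay above duct replicate 1, and neither reached the kidneys. Such a lack of overlap was found in 57.5% of all genes. Kidney replicate 2 was also above kidney replicate 1 in these genes, except in slc22a7b.1. Among proximal markers, replicate 2 was above replicate 1 in 10 of 11 in ducts and in 10 of 11 in kidneys.

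Of 19 haem and iron genes 5 were lower in ducts and 0 higher, and 3 of the 5 are carriers. The iron exporter gene slc40a1 read 7.18 and 7.48 against 9.13 and 8.87 in kidneys, and the iron importer gene slc11a2 read 7.67 and 7.63 against 9.65 and 8.78. The mitochondrial glycine carrier gene slc25a38b, needed for haem synthesis, read 6.43 and 6.35 against 8.61 and 8.54 (log2 difference -2.19 ± 0.17, adjusted p = 0.00584). Among 13 metal carriers slc11a2 was the only call. Of 15 erythroid markers 7 were lower in the same arrays, and the haem synthesis gene urod is a called member of both lists. Of the lipid pumps of the ABC family, abca12, known in skin for loading the lipids of the water barrier, read 10.92 and 10.68 in ducts and 7.37 and 6.94 in kidneys. That was a 12.5-fold difference (log2 difference 3.65 ± 0.21, adjusted p = 0.00374), and abca12 was the only one of 11 ABC genes past the threshold. Without duct replicate 1 the adjusted p of the 21 transport genes named here ran from 0.0665 to 0.211, without duct replicate 2 from 0.0563 to 0.235, and none passed. Without either irradiated array 13 of them passed, and 18 and 19 did without kidney replicates 1 and 2.

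**Figure D2:**
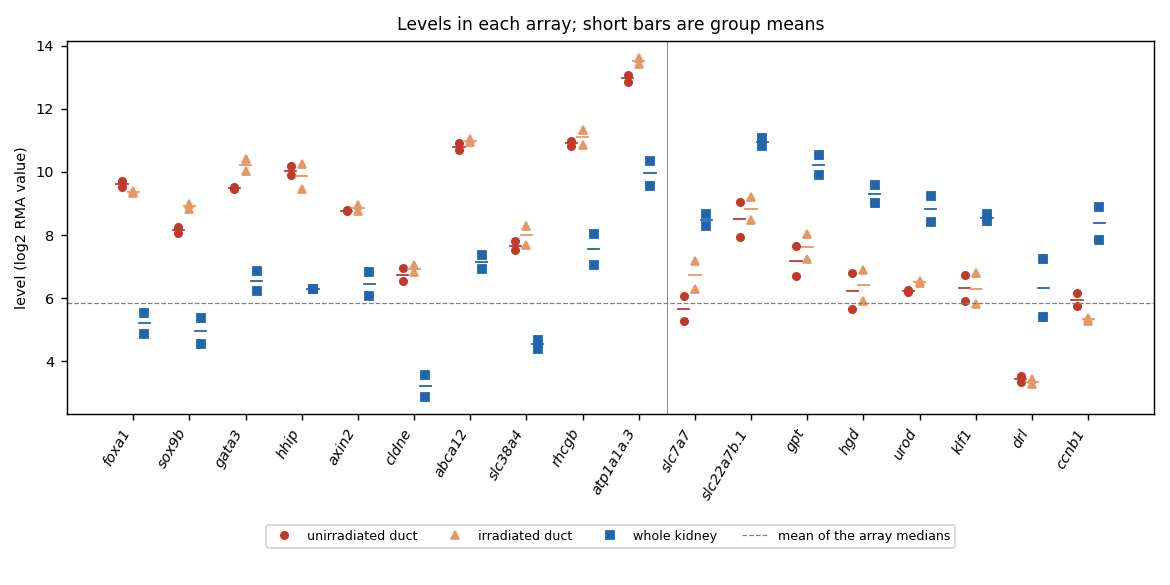
Level in each array (y axis, log2 RMA value) of 10 genes higher (left of the line) and 8 genes lower (right) in unirradiated ducts than in whole kidney, with irradiated ducts beside them, short bars for group means and a dashed line at the mean of the array medians. In each gene both unirradiated duct arrays lie on one side of both kidney arrays, as in 57.5% of all genes. The 2 kidney values of drl, 7.23 and 5.42, lie far apart.

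More transcription factor genes were called higher than lower in ducts. Of 454 measured genes, 35 were higher (7.71%) and 13 lower (2.86%), against 4.11% and 3.32% of all genes. Their median log2 difference was 0.14. Forkhead genes had 3 of 24 higher and 1 lower. The gene foxa1, a factor that opens chromatin in several gut and urogenital epithelia, read 9.54 and 9.73 in the ducts and 4.87 and 5.53 in the kidneys. The kidneys lay under the array medians and the ducts far over them, a 21.5-fold difference (log2 difference 4.43 ± 0.25, adjusted p = 0.00374). Its relative foxa3 read 8.11 and 7.75 against 5.52 and 5.13. The zinc finger gene gata3, which is needed for the nephric duct in mice, read 9.47 and 9.53 against 6.86 and 6.23 (log2 difference 2.96 ± 0.26, adjusted p = 0.00643). The ducts were nearly equal to each other and both above the kidneys, and gata2a followed with 8.46 and 8.71 against 6.90 and 6.66. Those were 2 of 6 GATA genes, with 0 lower.

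The SOX gene sox9b, a factor of ducts and cartilage, read 8.26 and 8.05 in ducts and 4.56 and 5.38 in kidneys, a 9.06-fold difference. A second probe set of sox9b, which read 5.34 and 5.11 as group means, differed by only 0.24 (adjusted p = 0.46), so the probe sets disagree. The T-box gene tbx2b read 9.90 and 9.95 against 7.39 and 8.31. Of 18 ETS genes 2 were higher and 1 lower, 13 differences were negative and the median was -0.35. The higher ones were elf3 and ehf, both known from epithelia, with elf3 at 10.80 and 10.17 against 8.39 and 7.95 (log2 difference 2.32 ± 0.27, adjusted p = 0.0126). The related ehf read 7.97 and 7.50 against 6.22 and 5.17. The lower one, fli1rs, related to an endothelial and blood factor, read 7.39 and 7.31 against 8.20 and 8.15. Both tfap2a (log2 difference 1.85 ± 0.30) and tfap2b (1.54 ± 0.33), which encode related activators of distal nephron and surface epithelium, were higher, 2 of 5 genes in their list. Of 103 homeobox genes outside the Hox clusters only isl2a (6.99 and 6.27 against 4.12 and 4.51) and prrx1a (7.32 and 6.55 against 5.19 and 5.27) were higher, and prrx1a is known from mesenchyme. Of 33 AP-1, CREB and MAF genes 5 were higher and 1 lower. The fosab gene read 11.51 and 11.73 against 7.47 and 6.35, and jdp2b, whose product pairs with Jun proteins, read 9.84 and 10.48 against 6.86 and 6.35. The flow-responsive gene klf2a was 2.90-fold higher, in a list of 23 KLF and SP genes with 2 higher and 2 lower. The part of the picking of ducts in the fosab, jdp2b and klf2a differences was not tested.

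The 13 lower factor genes had several roles, and those of blood formation were not counted as a list. The red cell factor klf1 read 5.92 and 6.72 in ducts and 8.65 and 8.45 in kidneys (log2 difference -2.23 ± 0.40, adjusted p = 0.0341), and klf17, also used in blood formation in fish, was 2.65-fold lower. The blood stem cell factor tal1 read 3.81 and 4.03 against 6.05 and 6.18, so the ducts lay under the array medians. The erythroid and platelet factor nfe2 read 5.73 and 6.02 against 7.20 and 7.68, and myb, needed in blood stem cells, 7.06 and 6.47 against 7.79 and 8.05. The erythroid factor gene gata1a (log2 difference -2.02, adjusted p = 0.0626) and the myeloid one cebpa (-1.88 as a log2 difference, adjusted p = 0.0725) did not pass. The list of Myb, E2F and SMAD genes had 2 of 47 lower and 1 higher. For foxm1 and mybl1, which serve the cell cycle, the ducts were 2.98-fold and 2.83-fold lower. The proximal tubule and liver factor hnf4a read 4.89 and 5.08 against 5.88 and 6.24 (log2 difference -1.07 ± 0.19, adjusted p = 0.0344). Its duct levels lay under the array medians and its kidney levels above them. Another nuclear receptor gene, nr2f5, was 2.95-fold lower, and 3 of 41 nuclear receptor genes were lower and 1 higher. The nephron factor hnf1bb, in contrast, read 10.46 and 10.55 against 9.80 and 10.97, overlapping between the groups. Leaving out duct replicate 1 gave these 25 called factor genes adjusted p of 0.0665 to 0.222, and leaving out duct replicate 2 gave 0.0563 to 0.205. Without either irradiated array 11 passed, and 21 and 23 without kidney replicates 1 and 2.

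Homeobox genes of the Hox clusters, which mark position along the body axis, were called in 1 direction. Of 42 measured Hox genes 11 were higher (26.2%) and 0 lower, against 4.11% and 3.32% of all genes. Of the 42 differences 38 were positive, as were 4070 of all 8793, and the median was 0.61. At an unadjusted limma p under 0.05, 21 Hox genes were higher and 0 lower, and of all 8793 genes 1029 and 1428. In 27 of the 42 genes both group means lay under the array medians. The gene hoxd4a read 7.62 and 7.56 in the ducts and 5.27 and 4.80 in the kidneys, a 5.86-fold difference (log2 difference 2.55 ± 0.20, adjusted p = 0.00588). Next was hoxb3a, at 9.48 and 9.86 against 6.98 and 7.58 (2.39 ± 0.27 as a log2 difference, adjusted p = 0.0119). The duct arrays lay above the kidney arrays by more than the spread of either pair. Posterior genes were hoxc11a (7.39 and 7.34 against 5.22 and 4.92), hoxa10b (6.11 and 5.70 against 3.85 and 4.01), hoxd10a (7.01 and 6.88 against 5.06 and 5.18) and hoxb9a (8.71 and 9.24 against 7.18 in both kidneys). The remaining 5 were named after their values were seen. They were hoxd9a, hoxd11a, hoxb8a, hoxb2a and hoxa11b, with log2 differences of 1.72, 1.72, 1.71, 1.503 and 1.36. Positive differences were spread over the clusters. The median was 0.39 over 17 genes of paralogue groups 1 to 5, 0.58 over 13 genes of groups 6 to 9 and 0.92 over 12 genes of groups 10 to 13, where all 12 were positive and 5 passed. Genes of groups 12 and 13 did not pass.

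Probe sets of the same Hox gene did not always move alike. A second probe set of hoxa10b had a log2 difference of 0.23, and one of hoxb2a 0.78 (adjusted p = 0.0693). For hoxb8a the others read 0.14 and 1.95 (adjusted p = 0.0759) and for hoxc11a 0.38 and 1.73 (adjusted p = 0.0552). Smooth muscle and stromal markers were higher in the same arrays. The part of such cells in the Hox differences was not tested. Without duct replicate 1 the adjusted p of the 11 genes was 0.0822 to 0.167, without duct replicate 2 it was 0.0673 to 0.17, and without either irradiated array 9 passed.

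**Figure D3:**
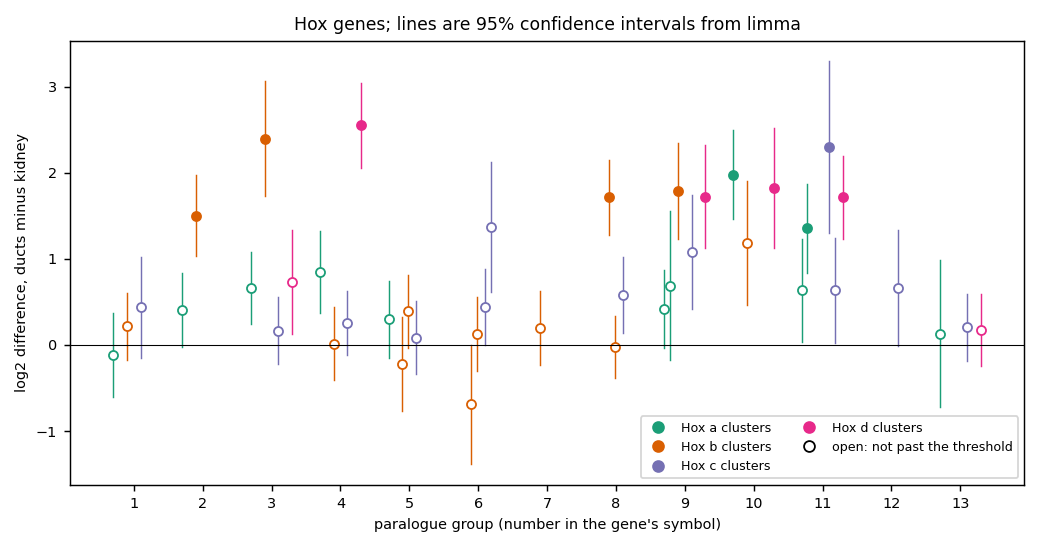
Log2 difference between unirradiated ducts and whole kidney (y axis, log2 scale, with 95% confidence intervals from limma) of 42 Hox genes, placed by the paralogue number in their symbol (x axis) and coloured by cluster letter, with filled points past the threshold. Filled points, 11 in all, lie in groups 2 to 4 and 8 to 11, and 38 of the 42 points lie above 0.

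Signalling genes were called higher more often than lower. Of 377 measured, 33 were higher (8.75%) and 12 lower (3.18%), against 4.11% and 3.32% of all genes. Their median log2 difference was 0.12. Among 41 Wnt pathway genes, 7 were higher and 0 lower. They include ligands, with wnt11 at 6.45 and 6.19 in ducts against 4.72 and 4.66 in kidneys and wnt2ba at 6.32 and 5.59 against 4.54 and 4.12. The gene of the secreted enhancer rspo1 read 9.42 and 9.11 against 7.26 and 6.38. Secreted modulators among the 7 were dkk2 at 7.46 and 7.41 against 3.72 and 4.09 (log2 difference 3.53 ± 0.41, adjusted p = 0.0131) and the inhibitor gene wif1 at 8.70 and 8.56 against 7.39 and 6.31. The feedback gene axin2, widely used as a readout of canonical Wnt signalling, read 8.75 and 8.80 against 6.08 and 6.82, a 5.03-fold difference (log2 difference 2.33 ± 0.27, adjusted p = 0.012). In each of these 6 genes both duct arrays were above both kidney arrays, a lack of overlap found in 57.5% of all genes.

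Of 15 Hedgehog pathway genes 1 passed. It was hhip, whose membrane protein binds and holds back Hedgehog ligands, at 10.19 and 9.89 in ducts and 6.29 and 6.28 in kidneys. That 13.5-fold difference (log2 difference 3.76 ± 0.28, adjusted p = 0.00564) had nearly equal replicates in both groups. The ligand gene shha read 5.92 and 5.91 against 4.29 in both kidneys, with a log2 difference of 1.63 (adjusted p = 0.0541). TGF-beta and BMP genes had 4 of 45 higher and 0 lower, among them the activin subunit gene inhbb (8.61 and 7.76 against 5.79 and 5.86) and the ligand gene bmp3 (6.80 and 7.25 against 4.87 and 5.43). Notch genes had 3 of 37 higher and 0 lower, with the ligand gene jag1b (8.50 and 8.08 against 7.10 and 6.32) and the repressor gene her9 (9.38 and 9.51 against 7.61 and 8.22). The Notch list's median was 0.02, close to that of all genes.

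Receptor kinases and their ligands had 5 of 63 higher and 2 lower. The hepatocyte growth factor receptor gene met, which drives tubule branching in mammals, read 8.13 and 8.47 against 5.99 and 6.27 (log2 difference 2.17 ± 0.21, adjusted p = 0.00814). The fibroblast growth factor receptor gene fgfr2 read 8.99 and 9.13 against 7.59 and 7.21, and the gene of its ligand fgf10a read 6.87 and 7.003 against 4.78 and 5.01. Another fgfr2 probe set differed by only 0.18. Ephrins, semaphorins, slits and netrins were counted apart. Of 39 such genes 1 was higher and 1 lower (2.56% each, against 4.11% and 3.32% of all genes). The higher one, the ephrin receptor gene epha4a, read 8.16 and 8.42 against 5.23 and 5.27 (log2 difference 3.04 ± 0.18, adjusted p = 0.00374). A second epha4a probe set, with both means under the array medians, differed by 0.42. Among the receptor kinases and their ligands, erbb2, a receptor of the epidermal growth factor family, was lower in ducts (2.42-fold). The endothelial semaphorin receptor gene plxnd1 was 2.92-fold lower.

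Among 19 eicosanoid genes 3 were higher and 3 lower, with a median of -0.03. The 3 higher ones make prostanoids. The constitutive cyclooxygenase gene ptgs1 read 9.84 and 9.72 in ducts against 7.42 and 7.78 in kidneys (log2 difference 2.18 ± 0.19, adjusted p = 0.00607). The inducible ptgs2a read 5.66 and 5.54 against 3.99 and 3.96, and the prostacyclin synthase gene ptgis 6.07 and 5.81 against 3.77 and 4.10. The lower ones were the leukotriene genes alox5b.3, at 4.83 and 5.30 against 8.67 and 7.36, and alox5ap, at 6.95 and 7.70 against 8.67 and 8.89, and the phospholipase gene pla2g15, 2.27-fold. A prostaglandin D synthase gene, ptgdsb.1, named after its values were seen, had the most negative difference of the list, -3.11, and did not pass (adjusted p = 0.177), since the kidneys read 4.90 and 9.05 and the ducts 3.79 and 3.94. Leukocytes are the usual source of leukotrienes, and 4 of 14 myeloid markers were lower in the same arrays. The part of such cells in these differences was not tested. Of 35 chemokine, interleukin and receptor genes 5 were higher and 2 lower. The chemokine gene cxcl14, made by many epithelia, read 10.66 and 10.20 against 7.26 and 7.01, a 9.81-fold difference. Receptors of small ligands had 2 of 51 higher and 2 lower (3.92% each), close to the 4.11% and 3.32% of all genes. Feedback genes had 2 of 29 higher and 2 lower (6.9% each). The called genes of both lists include the somatostatin receptor gene sstr5 (3.20-fold higher), the G protein regulator gene rgs12b (4.34-fold higher) and the kinase phosphatase gene dusp4 (5.05-fold lower). The endothelin receptor gene ednraa and the ATP-gated channel gene p2rx4a were 2.80-fold and 2.70-fold lower. Without duct replicate 1 these 29 called genes had adjusted p of 0.0665 to 0.195, and without duct replicate 2 of 0.0563 to 0.19. Without either irradiated array 17 passed.

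Epithelial genes were called higher more often than lower. Of 256 genes of epithelium, secretion and matrix 43 were higher (16.8%) and 7 lower (2.73%), against 4.11% and 3.32% of all genes. Their median log2 difference was 0.34. Claudins and other tight junction proteins had 13 of 33 higher and 0 lower (median 0.64). The claudin gene cldn23.1 read 7.69 and 7.18 in ducts and 3.51 and 3.98 in kidneys (log2 difference 3.69 ± 0.25, adjusted p = 0.00445), and cldne 6.94 and 6.55 against 2.87 and 3.57. In both, kidney levels were far under the array medians. Another claudin gene, cldnf, read 7.41 and 6.02 against 3.45 and 3.64, and cldn8.1 read 7.30 and 7.04 against 5.09 and 5.27. The occludin gene oclnb read 7.61 and 7.42 against 4.66 and 4.34 (log2 difference 3.02 ± 0.19, adjusted p = 0.00374). The scaffold gene tjp3 was 3.44-fold higher and the apical polarity kinase gene prkci 2.26-fold.

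Keratins gave a single call. Only krt4, a keratin of simple and surface epithelia, was higher among 15 keratin genes, at 12.31 and 11.91 against 8.102 and 9.48 (log2 difference 3.32 ± 0.47, adjusted p = 0.0195). The kidney replicates were far apart in several others. The gene krt91 read 11.68 and 11.77 in ducts and 6.32 and 9.32 in kidneys (adjusted p = 0.0578). With krt5 and krt15, named after their values were seen, the kidneys read 5.64 and 10.67 and 5.88 and 9.23, while all 4 duct values lay between 10.25 and 10.85. Kidney replicate 1 was the low one each time, as it was for emx1. Of 23 cadherin, catenin and related genes 0 passed limma's threshold, and the median was 0.34. At an unadjusted limma p under 0.05, 6 were higher and 0 lower, and of all 8793 genes 1029 and 1428.

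Calcium-binding genes were called in 1 direction and secretory genes in both. Annexins, S100 proteins and calpains had 6 of 31 higher and 0 lower. The calpain gene capn9, a protease of mucosal epithelia, read 9.24 and 8.73 against 4.07 and 4.95, the S100 gene s100v1 9.16 and 8.53 against 4.76 and 4.95, and the annexin gene anxa2b 8.21 and 7.18 against 5.34 and 4.11. Mucins, galectins and anterior gradient genes had 3 of 38 higher and 4 lower. The disulfide isomerase gene agr2, which folds mucins, read 11.63 and 11.20 against 9.13 and 8.06 (log2 difference 2.82 ± 0.37, adjusted p = 0.0168). The fucosyltransferase gene fut9b.4 read 8.84 and 8.47 against 3.82 and 4.40, a 23.3-fold difference over kidney levels under the array medians. The galectin gene lgals3b was 3.55-fold higher. The membrane mucin gene muc13b went the other way, with 7.32 and 7.82 in ducts and 9.47 and 9.72 in kidneys.

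Serine proteases and their inhibitors had 5 of 28 higher and 1 lower. The inhibitor gene tfpil, of the family that restrains tissue factor, read 10.17 and 9.86 against 6.55 and 6.13 (log2 difference 3.67 ± 0.23, adjusted p = 0.00374). A membrane protease gene, tmprss13b, read 8.08 and 7.64 against 6.05 and 6.28, and its other probe sets differed by 1.35 (adjusted p = 0.0382) and 0.46. The inhibitor gene spint1b was 2.91-fold higher by 1 of 4 probe sets, and the other 3 differed by -0.04 to 0.04. The gene nipal4, linked in humans to the lipid barrier of skin as abca12 is, read 6.81 and 6.76 against 2.997 and 3.33 (log2 difference 3.62 ± 0.18, adjusted p = 0.00374). Over the 19 called genes of these epithelial groups, the adjusted p was 0.0665 to 0.192 without duct replicate 1 and 0.0563 to 0.138 without duct replicate 2. Without either irradiated array 15 passed.

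**Figure D4:**
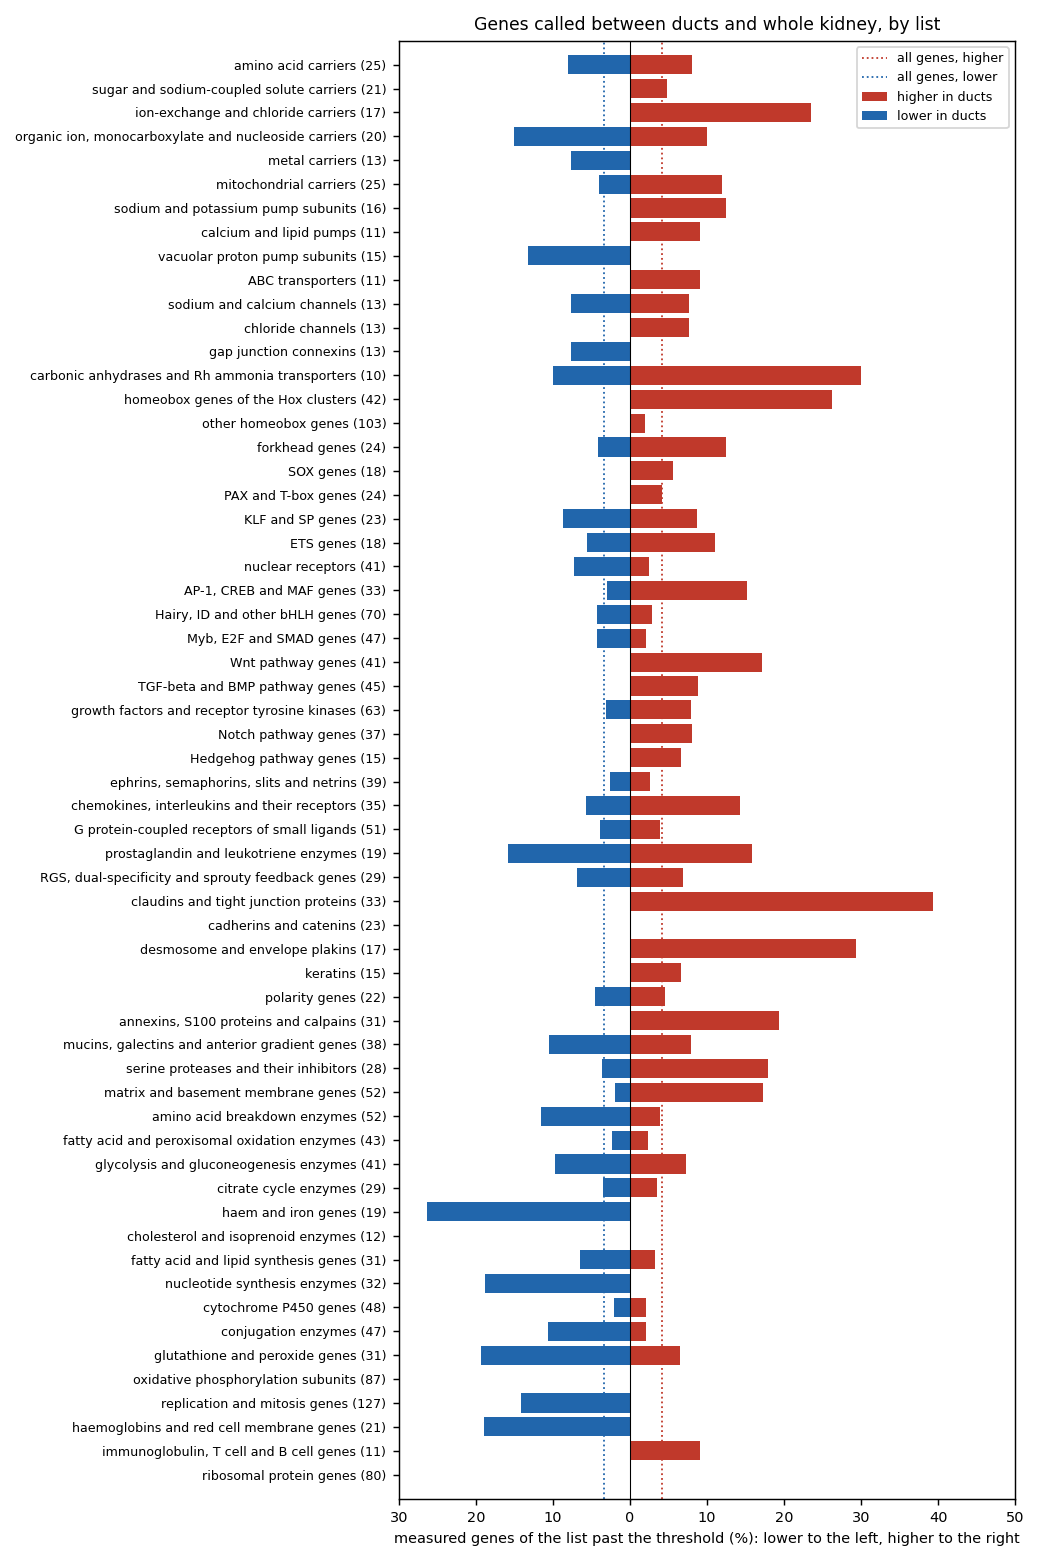
Share of measured genes past the threshold (x axis, %; lower in ducts to the left, higher to the right) in each gene list with at least 10 measured genes (y axis, genes in brackets), with dotted lines at 3.32% and 4.11% for all genes. Claudins and tight junction proteins reach 39.4% higher, and haem and iron genes reach 26.3% lower.

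Matrix and contractile genes were called as well. Matrix and basement membrane genes had 9 of 52 higher and 1 lower (17.3% and 1.92%, against 4.11% and 3.32% of all genes). The fibronectin gene fn1b read 9.90 and 9.18 against 6.82 and 6.67 (log2 difference 2.79 ± 0.31, adjusted p = 0.0107), the proteoglycan gene dcn 10.70 and 10.39 against 8.45 and 8.06, and the collagen crosslinking gene loxl2b 9.13 and 8.76 against 6.95 and 6.37. The metalloproteinase inhibitor gene timp2b was the single lower one, 6.21 and 6.70 against 8.86 and 8.45. Smooth muscle genes were among the 25 with the largest positive differences. The desmin gene desmb read 9.55 and 9.29 against 4.88 and 4.83 (log2 difference 4.56 ± 0.38, adjusted p = 0.00591), and the smoothelin gene smtnb 9.59 and 9.79 against 5.95 and 5.11. The duct replicates were close in tagln (11.90 and 11.71) and acta2 (12.25 and 12.13), while the kidneys read 8.81 and 6.82 and 9.70 and 7.36. The matrix gene postnb read 10.57 and 10.17 against 7.59 and 5.18. In these 3 genes kidney replicate 2 was the lower one. Skeletal muscle genes were less even between the ducts, with the actin gene acta1a at 8.78 and 7.99 and the myosin light chain gene mylz3 at 8.31 and 9.68, against 5.67 and 4.97 and 6.27 and 6.04. The endothelial receptor gene tie1 was 2.03-fold lower. Without duct replicates 1 and 2 these 12 genes had adjusted p of 0.0665 to 0.218 and 0.0673 to 0.201, and without either irradiated array 7 passed.

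Metabolic genes were called more often in the kidney's favour. Of 464 enzymes and related genes 12 were higher in ducts (2.59%) and 36 lower (7.76%), against 4.11% and 3.32% of all genes. Their median log2 difference was -0.15. Amino acid breakdown had 2 of 52 higher and 6 lower, 42 differences were negative, and the median was -0.40. The tyrosine breakdown gene hgd read 5.65 and 6.80 in ducts and 9.02 and 9.58 in kidneys (log2 difference -3.07 ± 0.49, adjusted p = 0.0255). Alanine aminotransferase, gpt, read 6.69 and 7.64 against 9.91 and 10.54, and the hydroxyproline breakdown gene hoga1 5.53 and 6.85 against 8.86 and 9.35. The glycolate oxidase gene hao1 read 5.95 and 6.89 against 8.50 and 8.87, and the histidine breakdown gene uroc1 7.87 and 8.87 against 10.11 and 10.69. In each of these 5 genes duct replicate 2 was above duct replicate 1 and below both kidneys. Kidney replicate 2 was also above kidney replicate 1 in each. A lack of overlap between ducts and kidneys was found in 57.5% of all genes. Most proximal tubule markers also read higher in replicate 2 than in replicate 1, in ducts and in kidneys, and hao1 is itself on that list. The part of proximal cells in these differences was not tested. The methionine cycle gene ahcy was 2.91-fold lower with nearly equal replicates, 10.94 and 11.09 against 12.52 and 12.59. Against the run of the list, the valine breakdown gene hibadha was higher by the probe set used, 7.71 and 7.65 against 5.08 and 5.29, and by 0.74 (adjusted p = 0.178) in another.

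Carbohydrate genes went both ways, with 3 of 41 higher and 4 lower. The gluconeogenic phosphatase gene g6pc1a.2 read 5.38 and 6.12 against 7.89 and 7.62. The pyruvate kinase gene pklr read 7.50 and 7.81 against 9.54 and 10.26 (log2 difference -2.25 ± 0.31, adjusted p = 0.0185). The aldolase gene aldoab, known from muscle, was higher, 8.13 and 7.84 against 5.93 and 5.01, and skeletal muscle markers were higher in the same arrays. Fatty acid genes were also called in both directions. Synthesis had 1 of 31 higher and 2 lower (3.23% and 6.45%, against 4.11% and 3.32% of all genes). Oxidation had 1 of 43 higher and 1 lower (2.33% each), with 32 negative differences and a median of -0.34. The elongase gene elovl7a read 8.95 and 8.48 against 5.46 and 6.33, and the fatty acid activating gene acsl1a 8.27 and 8.67 against 6.50 and 6.55. The ceramide synthesis gene degs1 was 2.54-fold lower and the triglyceride synthesis gene dgat1a 1.67-fold, the latter at levels of 3.20 to 4.04. The lower oxidation gene was the catalase gene cat. The retinoic acid synthesis gene aldh1a2 read 10.33 and 9.93 against 7.42 and 7.45, a 6.49-fold difference (log2 difference 2.70 ± 0.20, adjusted p = 0.00564). It was the single higher gene among 47 conjugation and dehydrogenase genes, of which 5 were lower. The lower ones include the monooxygenase gene fmo5 (4.34-fold), the sulfotransferase gene sult1st4 (3.86-fold) and the aldehyde dehydrogenase gene aldh9a1b (4.49-fold). Of 48 cytochrome P450 genes 1 was higher and 1 lower. The lower one, cyp2k22, read 5.45 and 5.70 against 8.26 and 7.99 (log2 difference -2.55 ± 0.25, adjusted p = 0.00814). The higher one, cyp3a65, was 6.77-fold higher, with a second probe set at 0.66 on the log2 scale (adjusted p = 0.119).

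Glutathione and peroxide genes had 2 of 31 higher and 6 lower. The transferase gene gstt1a read 9.55 and 9.92 against 12.02 and 11.43, the glutathione synthesis subunit gene gclm 7.89 and 8.40 against 10.22 and 9.65, and the catalase gene cat 8.48 and 9.02 against 9.98 and 10.28. The peroxidase gene gpx1b was higher, 11.92 and 12.02 against 8.80 and 10.17. Nucleotide synthesis had 6 of 32 lower and 0 higher (median -0.64), led by folate genes. The mitochondrial mthfd2 read 7.30 and 7.15 against 9.47 and 8.71, and the cytosolic mthfd1b 7.08 and 7.40 against 8.61 and 8.99. A serine and glycine converting gene, shmt2, was 2.29-fold lower by the probe set used and by 0.56 on the log2 scale, short of the threshold, in another. Haem and iron genes had 5 of 19 lower and 0 higher, with a median of -1.17. The haem synthesis gene urod read 6.21 and 6.25 against 9.25 and 8.43 (log2 difference -2.61 ± 0.28, adjusted p = 0.0107), and the biliverdin reductase gene blvrb was 3.63-fold lower. Replication genes and erythroid markers were lower in the same arrays as these lists, and urod itself is also on the list of erythroid markers. The part of dividing and red cells in these differences was not tested.

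Respiration and translation genes gave no call. Of 87 oxidative phosphorylation genes 0 passed in either direction by limma, their log2 differences ran from -0.88 to 0.91, and the median was 0.07. At an unadjusted limma p under 0.05, 5 were higher and 2 lower, and of all 8793 genes 1029 and 1428. Of 80 ribosomal protein genes 0 passed, with 1 higher and 4 lower at the unadjusted threshold and a median of -0.02. The adjusted p of the 29 called metabolic genes named here was 0.0665 to 0.213 without duct replicate 1 and 0.0563 to 0.22 without duct replicate 2. Without either irradiated array 15 passed, and 27 and 28 did without kidney replicates 1 and 2.

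**Figure D5:**
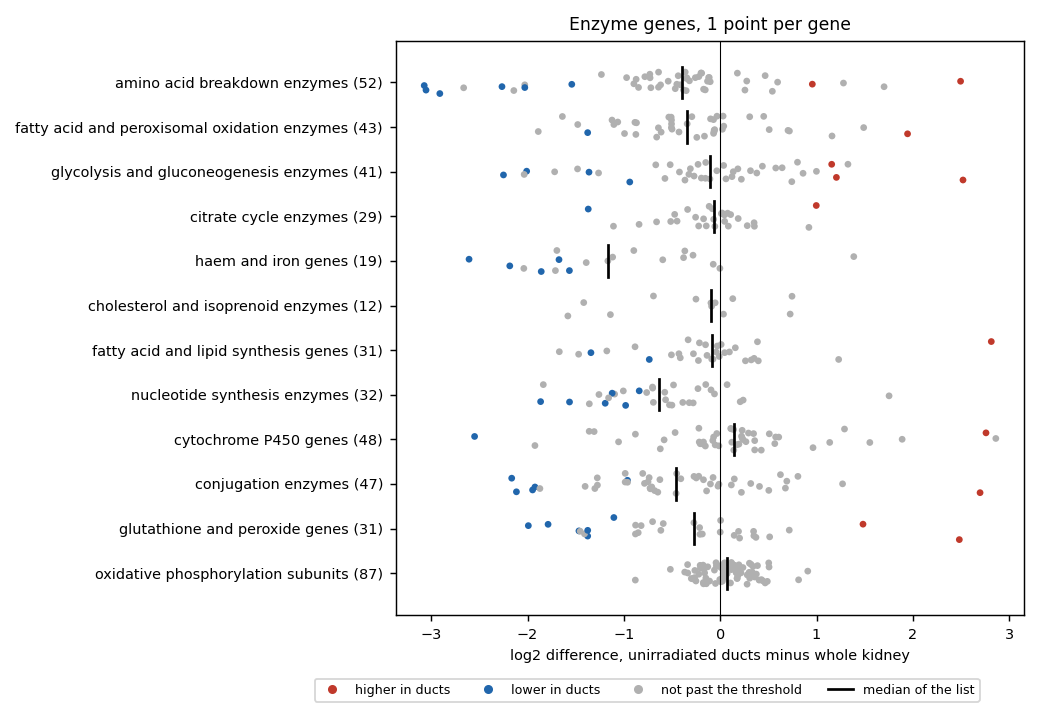
Log2 difference between unirradiated ducts and whole kidney (x axis, log2 scale) of enzyme genes in 12 lists (y axis, number of genes in brackets), with 1 point per gene, colour for the call and a black bar for the list's median. The medians of haem and iron genes (-1.17), nucleotide synthesis (-0.64) and amino acid breakdown (-0.40) lie left of 0, and the 87 oxidative phosphorylation genes are grouped around 0.07.

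Genes of cell division, blood and proximal tubule were among those with more transcript in whole kidney. Replication and mitosis genes were lower in ducts for 18 of 127 (14.2%) and higher for 0, against 3.32% and 4.11% of all genes. Of their differences 111 were negative, as were 4723 of all 8793, and the median was -0.90. At an unadjusted limma p under 0.05, 75 of the 127 were lower and 3 higher, and of all 8793 genes 1428 and 1029. The mitotic cyclin gene ccnb1 read 6.16 and 5.74 in ducts and 8.90 and 7.85 in kidneys (log2 difference -2.43 ± 0.36, adjusted p = 0.0223). The spindle motor gene kif11 read 6.03 and 5.44 against 8.72 and 7.36, and the replicative helicase gene mcm7 7.55 and 7.30 against 9.91 and 8.92. In all 3 kidney replicate 1 was the higher kidney. Both kidneys lay above both ducts, a lack of overlap found in 57.5% of all genes. Of 21 haemoglobin and red cell membrane genes 4 were lower and 0 higher. The globin gene hbba2 read 11.41 and 12.14 against 13.51 and 13.32, and the membrane skeleton gene epb41b 7.62 and 8.08 against 10.36 and 9.97. The red cell carbonic anhydrase gene cahz read 8.20 and 8.89 against 11.07 and 10.79, a 5.20-fold difference. These levels are well above the array medians in the ducts too.

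Of 14 myeloid markers 4 were lower (28.6%, against 3.32% of all genes) and 0 higher, with a median of -0.93. The lysozyme gene lyz read 11.99 and 12.20 in ducts and 13.17 and 13.18 in kidneys (log2 difference -1.08 ± 0.16, adjusted p = 0.0226), so the ducts still held high levels of it. The leukocyte actin-bundling gene lcp1 was 2.53-fold lower, and ncf1, of the phagocyte oxidase, 2.52-fold. The carboxypeptidase gene cpa5, a mast cell marker in zebrafish, read 8.18 and 8.60 against 10.53 and 11.10, a 5.37-fold difference. In the irradiated ducts lyz read 9.20 and 9.05 and cpa5 5.92 and 5.87, both under the unirradiated ones, and that difference is not tested here. Of the stem and progenitor markers 3 of 9 were lower, among them drl, a zinc finger gene of blood progenitors, at 3.34 and 3.54 against 7.23 and 5.42 (log2 difference -2.88 ± 0.56, adjusted p = 0.0399). Of the 11 proximal tubule markers 3 were lower, among them the endocytic adaptor gene dab2, which read 8.04 and 9.19 against 10.69 and 11.19. Among the 25 largest negative differences were also 2 plasma protein genes that belong to no list, the haptoglobin gene hp at 6.28 and 7.06 against 9.29 and 8.91 and the protein C gene proca at 3.63 and 4.12 against 5.92 and 6.51. The fibrinogen genes fga, fgb and fgg did not pass, with log2 differences of 0.15, -0.40 and 0.08, and 0 of 15 liver, pancreas and gonad markers were called. Over the 14 genes of cell division, blood and plasma named as higher in kidney, klf1 included, the adjusted p was 0.0883 to 0.222 without duct replicate 1 and 0.0673 to 0.236 without duct replicate 2, and 6 passed without either irradiated array.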

How the data were processed

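RNA from pools of 5 fish was hybridised to zebrafish 3' expression arrays, 2 per group. The authors deposited log2 expression values. RMA and affy are named as tools, without versions, per the submitters' processing notes. RMA brings all arrays to the same distribution of intensities after background correction and gives each probe set 1 summary value, so a shift shared by most transcripts is removed. The deposited values ran from 2.20 to 14.5, and were used as they stand. Without scanner files, not used here, no probe set has a detection call. Precision is limited by the small number of arrays.

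The 115 array controls among 15617 probe sets were set aside. The other 15502 were tested with limma (version 3.58.1, R version 4.3.3) with 1 mean for each of 3 groups, all 6 arrays and 3 residual degrees of freedom (prior 2.83). Two-sided p values were adjusted over all tested probe sets (Benjamini-Hochberg), with a threshold of 0.05. With 2 arrays against 2, exact permutation gives p = 0.333 at best and was not used. Probe sets took gene symbols from the platform's annotation, updated through a gene table. Of the tested probe sets 10795 named 1 gene, 135 several and 4572 none. Where a gene had several probe sets, the one with the highest mean level over the 6 arrays was used. Ducts, irradiated ones included, outweigh kidneys in that mean, so the choice can favour probe sets that read high in ducts.

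The comparison and the 79 gene lists were chosen with earlier results of these data known, and 66 matches of unrelated genes were dropped from the lists after values had been seen. No list was tested as a set. Named genes followed a rule: f11r.1, the 25 largest positive and 25 largest negative differences of at least 1 without overlap among called genes, up to 6 higher and 6 lower called genes of each list (the 2 lowest p where fewer than 2 pass), and the markers. The rule gave 369 genes, of which a part is printed, and 8 printed genes lie outside it, as said where they stand. Genes whose symbols only number a clone (621) were counted, not named. Promoter, probe and protein sequences are not used here.

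Alternatives tried were a replicate block, a fit of the 4 compared arrays, trended and robust eBayes, weights for arrays, a minimum mean log2 level of 6, centring on hybridisation controls or array medians, and leaving out each array. For genes with several probe sets, the one with the largest interquartile range over the 6 arrays was also tried. The deviations from the group means of replicate 1 of ducts and kidney correlated at 0.0633 across probe sets.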

Additional observations from a re-analysis of the deposited data

Results flagged for a closer look

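A probe set for EGFP, the reporter of the transgene that all fish carried, is among the array controls left out of the tests. Unirradiated ducts had levels of 6.49 and 6.41, irradiated ducts of 6.21 and 6.14, and kidneys of 6.05 and 6.21. The unirradiated ducts lay 0.32 above whole kidney on the log2 scale, which was listed because the signal comes from outside the main measurement and exceeds the level in the comparison tissue. A probe set for another fluorescent protein, AsRed2, read 5.73 and 5.69 in these ducts and 5.18 and 5.84 in the kidneys, a log2 difference of 0.20. No test was made on either.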

How the results depend on the processing

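With 2 arrays a group, the calls depend on each duct array. All 15502 probe sets gave 1126 calls, 662 higher and 464 lower. Leaving out single arrays gave 0 to 3373 calls, 0 to 1552 higher and 0 to 1821 lower. By limma, no call was left without either unirradiated duct array (2777 and 2536 at an unadjusted p under 0.05), 422 (309 higher, 113 lower) without either irradiated array, 1757 without kidney replicate 1 and 3373 without its replicate 2. The fit of the 4 compared arrays alone also gave 422 (309 higher, 113 lower), and array weights gave 615 (414 higher, 201 lower). Trend and robust eBayes (1048), the filter at a mean level of 6 (942) and centring on array medians (1205) stayed within 1.5 times. With the replicate block the count was 812 (490 higher, 322 lower), and 139 of the 172 called genes named in the text passed. The numbers are not shown to pair the arrays, whose deviations correlated at 0.0633. The filter at a mean level of 6 held 147 of these genes, and all 147 kept their direction and call. It takes the mean over all 6 arrays, ducts included, so a gene can pass it through the ducts alone. It also leaves the log2 differences as they were and cuts the tests from 15502 to 7477 probe sets. The kept calls are therefore no independent test. In each other setting except centring on hybridisation controls, all 172 kept their direction. These settings change the log2 difference little or not at all, or leave out 1 array of genes without overlap. Kept direction is therefore no test of the calls.

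Centring on hybridisation controls gave a median log2 difference of -1.83 over the probe sets, against 0.01, and 3335 calls, 19 higher and 3316 lower. It subtracts the controls' difference by construction and so turned 33 named genes. Among transporters, aqp8a.1 read -0.91, ca2 -0.19, slc12a8 -0.18, slc26a5 -0.23, slc43a1a -0.42 and slc4a2a -0.55. Among transcription factors, gata2a read -0.033, her9 -0.31, klf2a -0.30, prrx1a -0.13 and tfap2b -0.30. Hox genes read -0.48 (hoxa11b), -0.34 (hoxb2a), -0.13 (hoxb8a), -0.047 (hoxb9a), -0.018 (hoxd10a), -0.12 (hoxd11a) and -0.12 (hoxd9a). In signalling, fgfr2 read -0.18, jag1b -0.26, ptgs2a -0.22, sstr5 -0.16, wif1 -0.060, wnt11 -0.21 and wnt2ba -0.21. In epithelial groups, f11r.1 read -0.65, cldn3c -0.065, cldnb -0.12, lgals3b -0.0094, prkci -0.66, spint1b -0.30, tjp3 -0.058 and tmprss13b -0.14. Every alternative that was planned was run.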

Other observations

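Some genes with large differences belonged to no list, apart from the connexin gene gja13.1 below. The vesicle release gene rims2a read 9.84 and 9.38 in ducts and 4.33 and 4.25 in whole kidney (limma log2 difference 5.32 ± 0.37, adjusted p = 0.00445). The gene of the intestinal fatty acid binding protein, fabp2, read 7.52 and 8.34 against 4.22 and 4.02, and the matrix gene tnn 7.39 and 7.003 against 3.75 and 3.27. A second tnn probe set differed by only 0.31 (adjusted p = 0.474). The polyamine acetyltransferase gene sat2a.2 read 7.46 and 7.81 in unirradiated ducts, 3.99 and 3.68 in irradiated ducts and 3.68 and 4.05 in kidneys, so the irradiated ducts lay with the kidneys. In the other direction, the peptidase gene naalad2 read 5.71 and 6.53 in ducts against 9.08 and 8.90. The cellular retinol binding gene rbp2a read 5.90 and 5.59 in unirradiated ducts, 8.05 and 6.86 in irradiated ducts and 8.32 and 7.83 in kidneys. The peptide gene leap2, first known from liver, read 4.34 and 4.91 against 7.78 and 6.30, with ducts under the array medians. From the list of 13 gap junction genes, gja13.1 was the only call, lower in ducts at 7.37 and 8.76 against 10.10 and 10.63. Without duct replicate 1 or 2 none of these and of blnk below passed, with adjusted p of 0.0665 to 0.217 and 0.0563 to 0.187.

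Among 11 immunoglobulin, T cell and B cell genes the B cell adaptor gene blnk was the single call, and it was higher in ducts, 8.67 and 7.76 against 6.31 and 6.37 (limma adjusted p = 0.0317). The apolipoprotein gene apoa2 varied more than any other marker between the kidneys, 8.61 and 12.92, and read 9.90 and 10.51 in unirradiated and 7.45 and 5.64 in irradiated ducts.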
